A study of Mus musculus with 18 samples.

Results

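The Wnt/β-catenin and cyclin D axis was followed in 10 genes across the genotypes: Ctnnb1, Ccnd1, Ccnd2, Ccnd3, Cdk4, Cdk6, Lef1, Axin2, Gsk3b and Apc. They were taken from the count table by gene symbol, 10 of 55487 genes. The set was chosen by name with the genotype fold changes of an earlier fit of the same counts in view, so the genotype differences below describe these genes and carry no support beyond that. Messenger RNA of the frontal cortex of 18 mice aged 9 to 10 months was sequenced, and each genotype (WT, APP/PS1, APP/PS1/FTnKO) had 6 mice, 3 of each sex. APP/PS1 mice are a transgenic amyloid model that carries mutant APP, while APP/PS1/FTnKO mice in addition lack the β-subunit of farnesyltransferase (gene Fntb) in forebrain neurons, through a Cre driven by the CaMKIIα promoter acting on homozygous floxed alleles. The breeding scheme in the study's methods gives the Cre-negative littermates floxed alleles too, whereas the record names the control strain C57BL/6J, so whether the WT mice carried floxed alleles cannot be told apart here. Because the deletion reaches excitatory forebrain neurons and not glia or vessels, cortical RNA averages cells with and without it, and fewer cells of a type cannot be told apart from less RNA per cell.

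In canonical Wnt signalling, Wnt ligands bind Frizzled and LRP5/6 receptors and thereby inhibit a destruction complex of Apc, Axin, casein kinase 1 and glycogen synthase kinase 3, which otherwise marks β-catenin for degradation. Stabilised β-catenin enters the nucleus and activates target genes together with TCF/LEF factors, while another pool of the protein links cadherins to the actin skeleton at synapses and other junctions. D-type cyclins bind CDK4 and CDK6 to drive cells out of G1, and Ccnd1 and Ccnd2 are among the genes described as targets of the pathway. In the adult cortex, where nearly all neurons have left the cell cycle, cyclin D transcripts also come from glia, vessels and postmitotic neurons.

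The D cyclins are paralogs, so the chance of a read being assigned to the wrong one matters for what follows. Only their coding sequences were compared. The pseudogenes that the count table names Ccnd3-ps and Apc-ps1 were not. The longest coding sequences in GENCODE release M21 were 885 bases for Ccnd1, 867 for Ccnd2 and 876 for Ccnd3, and Ccnd1 and Ccnd2 were identical at 70.5% of 854 aligned bases. The longest run of identical bases was 20 between Ccnd1 and Ccnd2, 17 between Ccnd1 and Ccnd3 and 14 between Ccnd2 and Ccnd3, which is short against reads of 150 bases. The stretch around the run shared by Ccnd1 and Ccnd2 is shown to make this visible (coding bases 93 to 192 of Ccnd1, 87 to 186 of Ccnd2 and 93 to 192 of Ccnd3, with the run in capitals, and in Ccnd3 its bases identical to the run, of which 2 of 20 differ).
Ccnd1: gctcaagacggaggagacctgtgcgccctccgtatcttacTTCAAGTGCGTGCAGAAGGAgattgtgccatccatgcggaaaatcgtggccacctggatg
Ccnd2: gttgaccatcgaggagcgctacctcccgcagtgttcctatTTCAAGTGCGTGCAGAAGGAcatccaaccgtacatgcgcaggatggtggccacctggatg
Ccnd3: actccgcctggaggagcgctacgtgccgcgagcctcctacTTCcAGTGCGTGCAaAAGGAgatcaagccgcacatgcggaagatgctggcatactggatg

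Promoter windows from RefSeq (build GRCm38.p6) were at hand for 7 of the 10 genes, in 12 windows. None was at hand for Ccnd1, Ccnd2 or Apc, so the search does not cover these genes. The 250 bases before each start were searched on both strands for the TCF/LEF core CTTTGNN, in which each N had to be A or T (4 spellings), a match being a description of letters and not a bound site. A match lay in 2 of the 12 windows, against 14.8% of all 32851 windows searched the same way. The windows shown are those of Cdk4, chr10:127063285-127063534, and of an internal start of Lef1, chr3:131156044-131156293, which held the matches, and of Axin2, chr11:108920099-108920348, a feedback inhibitor widely used as a reporter of the pathway, which held none. All 3 are on the plus strand, and capitals mark the match, read on the opposite strand, which begins 52 bases before the start in Cdk4 and 147 before it in Lef1.
Cdk4: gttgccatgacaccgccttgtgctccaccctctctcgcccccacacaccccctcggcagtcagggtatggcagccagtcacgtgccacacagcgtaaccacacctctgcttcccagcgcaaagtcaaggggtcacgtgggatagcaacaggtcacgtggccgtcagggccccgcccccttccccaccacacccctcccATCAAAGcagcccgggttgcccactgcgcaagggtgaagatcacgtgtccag
Lef1: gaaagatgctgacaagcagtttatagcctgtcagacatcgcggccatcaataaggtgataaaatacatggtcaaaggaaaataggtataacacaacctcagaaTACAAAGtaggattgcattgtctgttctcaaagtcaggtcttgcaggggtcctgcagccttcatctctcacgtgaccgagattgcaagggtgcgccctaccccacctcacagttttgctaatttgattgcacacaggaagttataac
Axin2: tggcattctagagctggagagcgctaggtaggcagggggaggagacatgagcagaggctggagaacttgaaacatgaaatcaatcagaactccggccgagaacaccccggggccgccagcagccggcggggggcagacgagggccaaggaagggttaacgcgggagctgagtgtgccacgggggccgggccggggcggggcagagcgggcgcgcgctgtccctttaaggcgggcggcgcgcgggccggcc

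The labels were checked first, and 1 WT library stood apart. Total counts were 15925432 to 21030935 per mouse. In TMM-scaled CPM (counts divided by the scaled library size), Fntb lay between 7.84 and 14.7 in APP/PS1/FTnKO mice. It lay between 14.2 and 32.1 in APP/PS1 mice and between 14.1 and 32.2 in the WT mice other than 19622, so the deleted group reached up into both ranges. App reads were 2362 to 3095 CPM in APP/PS1 against 1492 to 1613 in these WT mice, and Prnp, whose promoter drives the transgenes, was at 1983 to 2333 against 658 to 768. In WT mouse 19622, 55.4% of 17285 genes lay above or below all 17 other mice. Its summed CPM was 518 over excitatory neuron markers, against 5310 to 7128 in the other WT mice, and 3744 over cerebellar markers, against 232 to 264. Among the 10 genes, Ccnd2 was at 15.6 CPM in this mouse, 0.192 of the mean of the other WT mice, and Ccnd3 was at 39.2 CPM, 1.55 times their mean. Ctnnb1 (498 CPM) and Ccnd3 lay above all 17 other mice, Ccnd1 (18.03), Ccnd2, Cdk6 (2.06), Axin2 (24.8) and Apc (314) lay below all of them, and Cdk4, Lef1 and Gsk3b lay within their range. The values that follow are from the 17 other mice (5 WT and 6 of each other genotype), and values with 19622 are given for the results closest to the threshold and the differences it moved most.

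**Figure D1:**
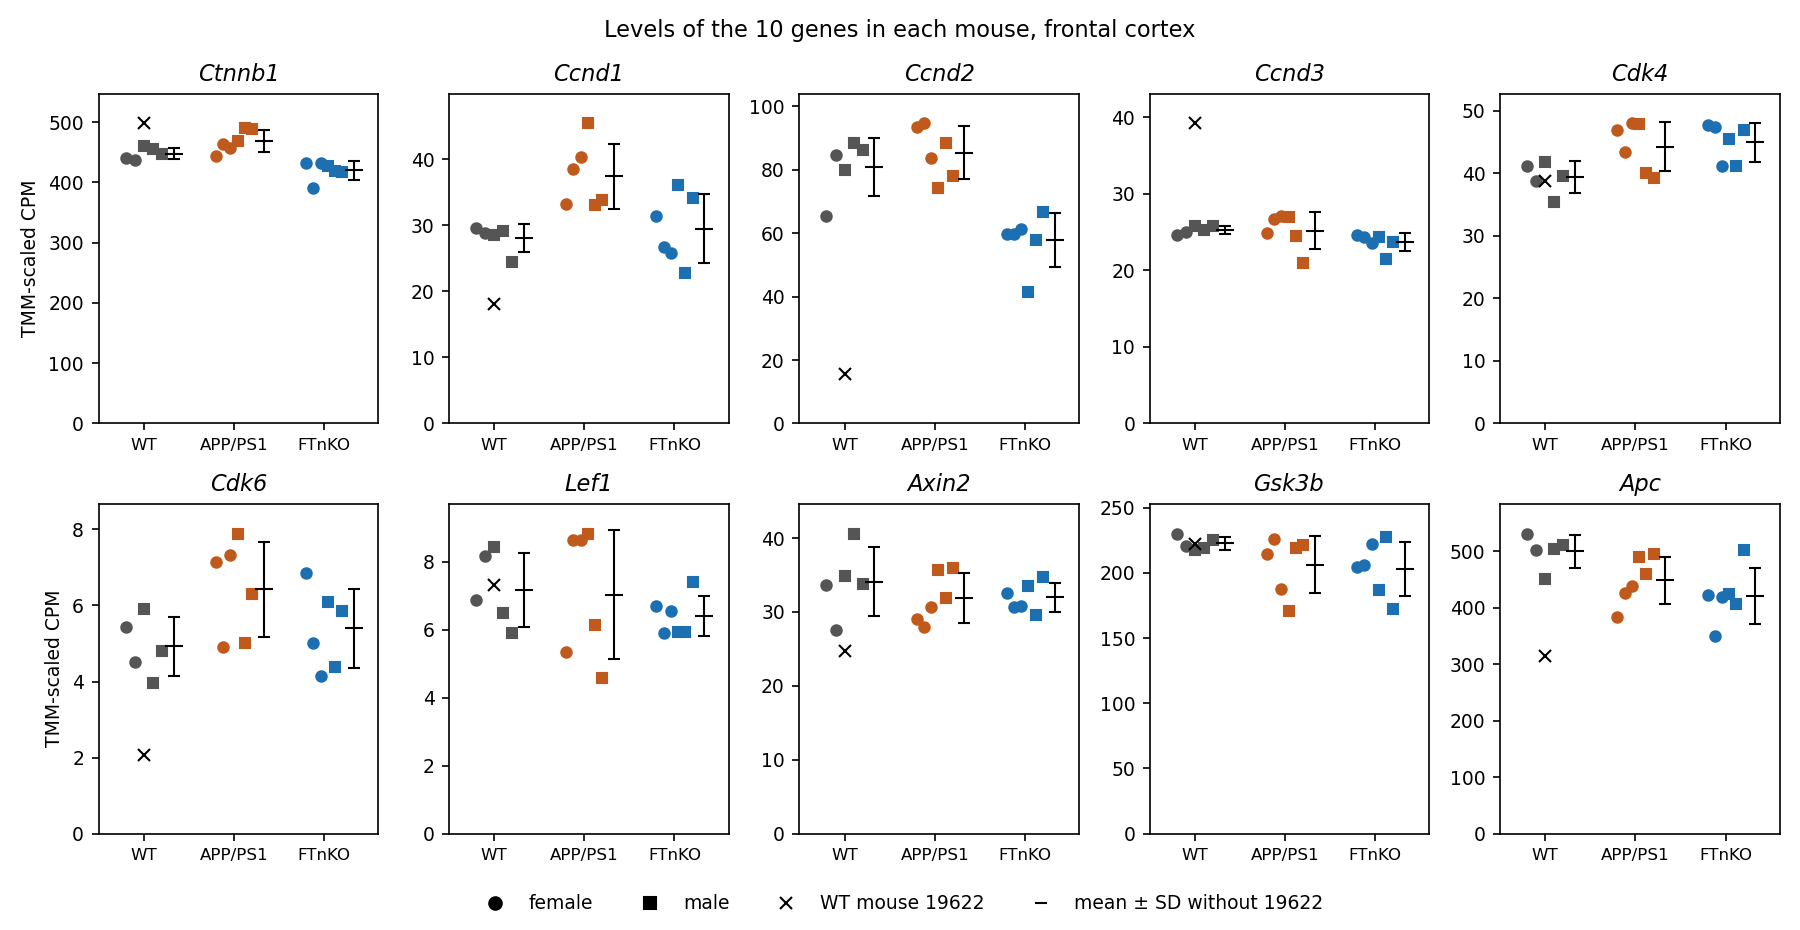
TMM-scaled CPM (y axis, from 0) of the 10 genes in each mouse, by genotype (x axis; FTnKO stands for APP/PS1/FTnKO), with circles for females, squares for males, a cross for WT mouse 19622 and, beside each group, the mean ± SD of the mice without 19622. In Ccnd2 the 6 APP/PS1/FTnKO mice sit between 41.4 and 66.8, below all 6 APP/PS1 mice, and the cross lies at 15.6.

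All 10 genes were expressed and passed the filter on low counts. Per kilobase of exon, Ctnnb1 was the highest in WT mice at 86.3 ± 1.89 CPM per kb (SD, n = 5), followed by Apc at 31.0 ± 1.83, Gsk3b at 22.6 ± 0.523 and Cdk4 at 12.1 ± 0.774. Ccnd2 (8.60 ± 0.980), Axin2 (6.19 ± 0.845) and Ccnd1 (5.96 ± 0.437) came next. The mice of Axin2 overlapped with those of Ccnd2 and with those of Ccnd1, so its place was not resolved. The lowest WT mouse in Ccnd2 (6.95 CPM per kb) lay above the highest in Ccnd1 (6.27). Ccnd3 (2.88 ± 0.0566), Lef1 (0.815 ± 0.124) and Cdk6 (0.352 ± 0.0553) were lowest. In WT mice Ccnd2 made up 49.2% ± 3.61 (SD, n = 5) of the length-scaled D cyclin signal, in APP/PS1 mice 45.7% ± 4.32 (n = 6) and in APP/PS1/FTnKO mice 40.8% ± 5.81 (n = 6). The level of Ccnd2 stood above that of Ccnd1 in the mean of WT and of APP/PS1 mice, while in APP/PS1/FTnKO mice Ccnd1 (6.26 ± 1.11 CPM per kb) and Ccnd2 (6.15 ± 0.915) were alike in mean and their mice overlapped.

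The first question was what deleting neuronal farnesyltransferase changed in APP/PS1 mice. Ccnd2 fell in APP/PS1/FTnKO mice, and it was the 1 of the 10 genes that edgeR's quasi-likelihood test called at an adjusted p below 0.05, in a comparison in which 0.327% of all 17414 genes were called. Ctnnb1 and Ccnd1 also had lower values, which did not pass, and Gsk3b, Axin2 and Cdk4 had the smallest differences. The log2 fold change was negative for 8 of the 10 genes, with a median of -0.11, against a median of -0.0016 over all genes.

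Ccnd2 encodes cyclin D2, the D cyclin that neuronal progenitors of the adult hippocampus depend on. It lies on the minus strand at chr6:127125162-127152193 (GRCm38). Its level ranged from 41.4 to 66.8 CPM with a median of 59.7 in APP/PS1/FTnKO mice and from 74.3 to 94.6 with a median of 86.0 in APP/PS1 mice. Every APP/PS1/FTnKO mouse was therefore below every APP/PS1 mouse, and the lowest value belonged to 1 male, 16974, far below the other 5 mice. The RNA integrity number of 16974, 7.6, was the lowest of all mice. Mouse 16975, the lowest in Ccnd2 among APP/PS1 mice, had the next lowest, 7.7. The log2 fold change was -0.56 ± 0.098 (SE), a 0.678-fold level, with an adjusted p of 0.0175 in edgeR and 4.13e-05 in DESeq2. Of these tools DESeq2 was the less strict, as it called 1.7% of all genes with an adjusted p here, against 0.327% in edgeR. On counts simulated for this comparison DESeq2 made more false calls than its threshold allows. Those counts were drawn with edgeR's own dispersion estimates, which may favour edgeR. The difference was nearly the same size with mouse 19622 in the fit, at -0.56 ± 0.27, but the spread that all groups share was then larger and the adjusted p was 0.750 (edgeR, which then called 0.0116% of all genes). It was 0.0516 when only these 2 genotypes were fitted. When 1 of the mice 18943, 19394, 19553 and 19554 was left out, it was 0.0502 to 0.0658, while the log2 fold change stayed between -0.57 and -0.53.

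Ctnnb1 encodes β-catenin, the protein that the destruction complex degrades, and lies at chr9:120929216-120960507 on the plus strand. Its level ranged from 391 to 433 CPM with a median of 424 in APP/PS1/FTnKO mice and from 444 to 490 with a median of 467 in APP/PS1 mice. The groups did not overlap, as in 2 of the 10 genes here (Ctnnb1 and Ccnd2), against 0.97% of all genes. The spread between mice was small, with a coefficient of variation of 3.72% and 3.82%, and the log2 fold change was -0.16 ± 0.037. Its adjusted p was 0.0801 in edgeR, and 0.000181 in DESeq2, which called 1.7% of all genes with an adjusted p in this comparison. EdgeR also called it once RIN, the RNA integrity number, was added as a term (adjusted p = 0.0356). The share of all genes called in that fit is not given here. With mouse 19622 the log2 fold change was -0.16 with an adjusted p of 0.487 (edgeR). The median RIN was 8.2 in APP/PS1, 8.6 in APP/PS1/FTnKO and 8.7 in all 6 WT mice. Transcript levels say nothing of the stability of the protein, at which the pathway mainly acts.

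Ccnd1 encodes cyclin D1, which lies on the minus strand at chr7:144929931-144939925. Its level was 22.7 to 36.1 CPM with a median of 29.1 in APP/PS1/FTnKO mice and 33.1 to 45.4 with a median of 36.1 in APP/PS1 mice. These groups overlapped, and with a log2 fold change of -0.34 ± 0.11 the adjusted p was 0.213 in edgeR and 0.0855 in DESeq2. Summed microglial markers had a median of 795 CPM in APP/PS1 mice (559 to 1077) and 730 in APP/PS1/FTnKO mice (464 to 781). All 10 of these markers had lower values in APP/PS1/FTnKO mice (their median difference was -0.25 on the log2 scale), and none was called by edgeR (4 at an unadjusted p below 0.05). Their part in the Ccnd1 difference was not tested. For Ccnd3, cyclin D3, the difference was -0.09 ± 0.060. For the partner kinases it was 0.02 ± 0.063 (Cdk4) and -0.25 ± 0.15 (Cdk6), the latter at only 77 to 131 counts per mouse. None of these 4 genes passed the test, and the 95% interval of the Cdk4 difference, -0.11 to 0.16, was narrower than that of Cdk6, -0.58 to 0.08. In the destruction complex, the kinase Gsk3b differed by -0.02 ± 0.071 and the scaffold Apc by -0.09 ± 0.070. Axin2, which is both a member of that complex and a target of the pathway, differed by 0.01 ± 0.067, with an interval of -0.13 to 0.15. Lef1, a DNA-binding partner of β-catenin, differed by -0.13 ± 0.15. All 4 had adjusted p-values of 0.667 or more in edgeR.

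**Figure D2:**
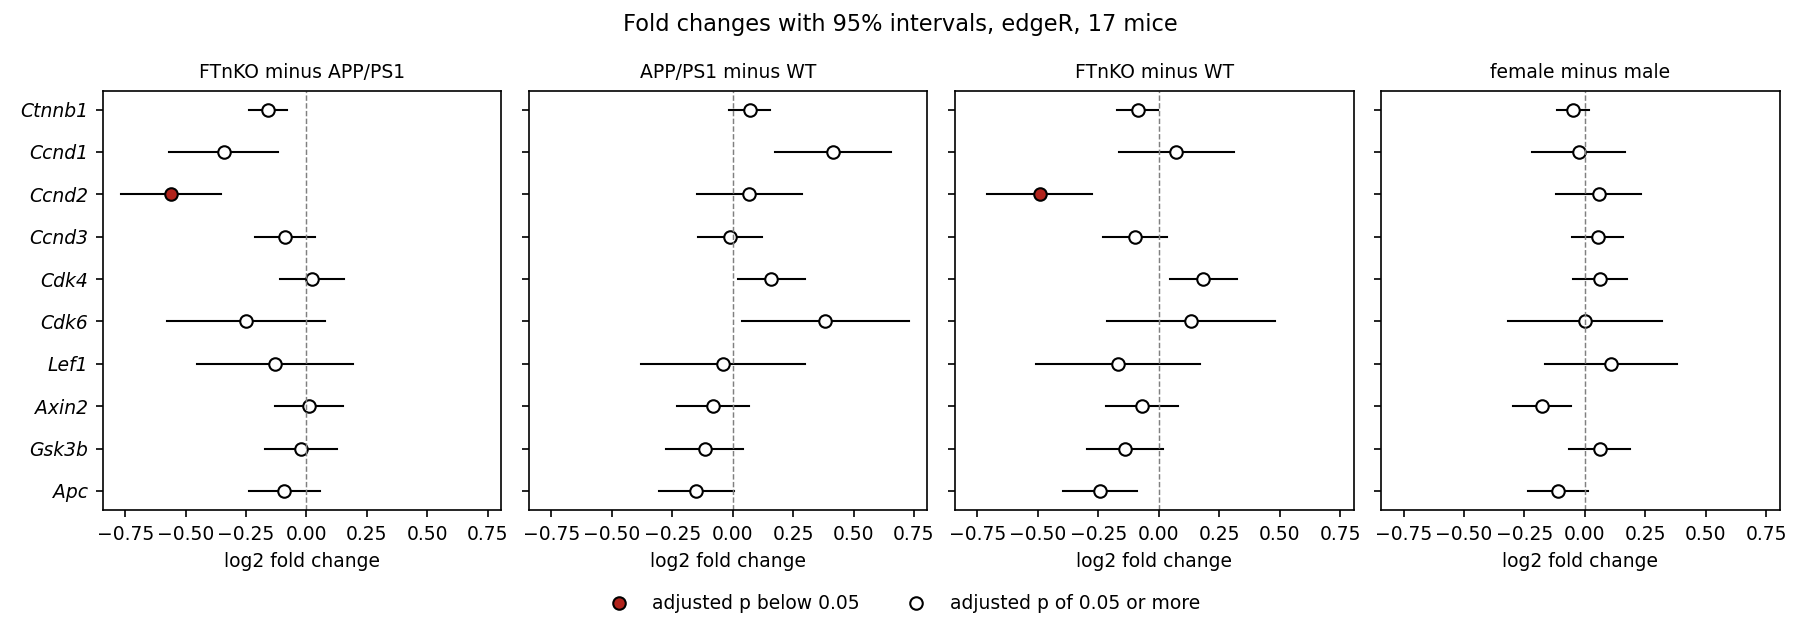
Log2 fold change (x axis) of each gene (y axis) with its 95% interval in edgeR's fit of 17 mice, for 3 genotype comparisons and for sex (FTnKO stands for APP/PS1/FTnKO). Filled points have an adjusted p below 0.05, which holds for Ccnd2 alone, at -0.56 against APP/PS1 and -0.49 against WT.

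The amyloid model itself was compared with WT next. The mice of each genotype serve in 2 of the genotype comparisons, so these are not independent of each other. None of the 10 genes was called by edgeR, where 1.5% of all genes were, and 3 had an unadjusted p below 0.05 (Ccnd1, Cdk4 and Cdk6, all higher in APP/PS1), against 14% of all genes. DESeq2 called 1, Ccnd1, and 2.69% of all genes with an adjusted p.

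Ccnd1 was at 29.5, 28.8, 28.5, 29.1 and 24.4 CPM in the 5 WT mice, below all 6 APP/PS1 mice (33.1 to 45.4). It was the 1 member that did not overlap between these genotypes, against 2.4% of all genes. The log2 fold change was 0.42 ± 0.11, with an adjusted p of 0.0842 in edgeR and 0.0215 in DESeq2, and 0.0364 in edgeR when the APP/PS1/FTnKO mouse 18973 was left out of the common fit. With all 18 mice it was 0.51 with an adjusted p of 0.0781 (edgeR, which then called 1.2% of all genes). The summed CPM of microglial markers moved the same way, from 422 to 476 among WT mice and from 559 to 1077 among APP/PS1 mice. That of oligodendrocyte precursors overlapped (257 to 349 and 253 to 372). The part of either in the Ccnd1 difference was not tested. Cdk6 was at 5.44, 4.50, 5.91, 3.95 and 4.81 CPM in WT and at 4.90 to 7.88 in APP/PS1 mice, with a log2 fold change of 0.38 ± 0.16 and an adjusted p of 0.310. Cdk4 was at 41.2, 38.8, 41.8, 35.4 and 39.6 CPM in WT and at 39.3 to 48.0 in APP/PS1 mice, a difference of 0.16 ± 0.066 with an adjusted p of 0.288. Both kinases overlapped between the genotypes. Ctnnb1 differed by 0.07 ± 0.039, Ccnd2 by 0.07 ± 0.10 and Ccnd3 by -0.01 ± 0.063. Apc differed by -0.15 ± 0.074, Gsk3b by -0.12 ± 0.075, Axin2 by -0.08 ± 0.071 and Lef1 by -0.04 ± 0.16. With 19622 the difference was 0.31 for Ccnd2 (adjusted p = 0.644), -0.12 for Ccnd3 (0.595), 0.54 for Cdk6 (0.263) and -0.06 for Apc (0.830, all edgeR).

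Against WT, the same APP/PS1/FTnKO mice also had less Ccnd2, the 1 of 10 genes called by edgeR where 3.87% of all genes were. As these mice are in both comparisons, this is not an independent repeat of the difference from APP/PS1. The 5 WT mice had 65.4, 84.7, 79.9, 88.5 and 86.1 CPM, and 1 APP/PS1/FTnKO mouse with 66.8 CPM lay above the lowest of them, so these groups overlapped. The log2 fold change was -0.49 ± 0.10, a 0.711-fold level, with an adjusted p of 0.0150 in edgeR and 0.000502 in DESeq2. Without WT mouse 19053 the log2 fold change was -0.48 with an adjusted p of 0.0530 (edgeR). With 19622, whose Ccnd2 level was below that of every APP/PS1/FTnKO mouse, the log2 fold change was -0.26 with an adjusted p of 0.646 (edgeR, which then called 1.51% of all genes).

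Apc, the scaffold of the destruction complex, had the next lowest p. It was at 531, 501, 451, 505 and 512 CPM in WT mice and at 350 to 502 with a median of 421 in APP/PS1/FTnKO mice, and 1 male, 19720, held the highest of these. The log2 fold change was -0.24 ± 0.074 with an adjusted p of 0.0702 in edgeR and 0.0250 in DESeq2, which called 2 of the 10 genes (Ccnd2 and Apc) and 8.59% of all genes with an adjusted p. Without WT mouse 19101 edgeR's adjusted p was 0.0403, and without 19720 it was 0.0371, but with 19622 in the fit the log2 fold change was -0.15 with an adjusted p of 0.433. Ctnnb1 was at 440, 437, 460, 455 and 448 CPM in WT mice, above all 6 APP/PS1/FTnKO mice (391 to 433), as in 1 of the 10 genes against 5.6% of all genes. Its log2 fold change was small at -0.09 ± 0.039, with an adjusted p of 0.198. Cdk4 differed by 0.18 ± 0.066 (adjusted p = 0.115) and Gsk3b by -0.14 ± 0.075. The other 5 genes (Ccnd1, Ccnd3, Cdk6, Lef1 and Axin2) had adjusted p-values of 0.368 or more in edgeR. With 19622 the difference was -0.21 for Ccnd3 (adjusted p = 0.241), 0.29 for Cdk6 (0.479) and 0.16 for Ccnd1 (0.533, all edgeR). Summed excitatory neuron markers moved with Ccnd2, with medians of 5595 CPM in WT mice, 5801 in APP/PS1 mice and 4390 in those with the deletion, and all 3 ranges overlapped. Summed markers of olfactory bulb and neuroblasts had medians of 167 CPM in WT mice, 142 in APP/PS1 mice and 126 in those with the deletion, again with overlapping ranges. Of these 9 markers 8 had lower values in APP/PS1/FTnKO mice in both comparisons, their median difference on the log2 scale being -0.42 against APP/PS1 and -0.72 against WT, and none was called by edgeR (0 and 3 at an unadjusted p below 0.05). The part of either list in the Ccnd2 difference was not tested. Summed markers of cycling cells were 80.0 to 94.5 CPM in all 17 mice and none of the 18 tested genes of that list was called in any genotype comparison (edgeR).

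Sex did not enter the choice of the genes, and neither did its interaction with genotype. None of the 10 genes differed between females and males by edgeR, where 0.0689% of all genes did, or by DESeq2, where 0.144% did. Axin2 alone had an unadjusted p below 0.05, against 6.7% of all genes, with a log2 fold change of -0.18 ± 0.057 from males to females and an adjusted p of 0.575. Within genotypes Axin2 was at 30.6 ± 4.36 CPM in females (n = 2) and 36.4 ± 3.63 in males (n = 3) of WT, and at 29.2 ± 1.33 and 34.5 ± 2.32 in APP/PS1 (n = 3 each). It was at 31.3 ± 1.02 and 32.6 ± 2.68 in APP/PS1/FTnKO mice. For Ccnd2 the means of females were 90.6 ± 6.07 CPM in APP/PS1 and 60.3 ± 1.02 in APP/PS1/FTnKO mice, and those of males were 80.2 ± 7.28 and 55.3 ± 12.9 (n = 3 each). The difference between the sexes in its log2 fold change was -0.05 ± 0.19. No gene of the whole table had an adjusted interaction p below 0.05, 462 had an unadjusted p below 0.05, and the lowest unadjusted p of the 10 was 0.128 (Apc).

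The other genes of the pathway were taken from 8 lists holding 154 genes besides the 10, of which 140 were tested. Against APP/PS1, none of the 140 was called in APP/PS1/FTnKO mice by edgeR, 9 had an unadjusted p below 0.05 (11.5% of all genes did) and DESeq2 called 1 (Ctnnbip1, an inhibitor of β-catenin and TCF binding, named after its value was seen). In APP/PS1 against WT edgeR called none, 19 had an unadjusted p below 0.05 (14% of all genes) and DESeq2 called 3. Of all genes, edgeR called 0.327% against APP/PS1 and 1.5% in APP/PS1 against WT. DESeq2 called 1.7% and 2.69% of those with an adjusted p. In APP/PS1/FTnKO against WT edgeR called 8, 1 higher and 7 lower, and DESeq2 14, where these tools called 3.87% and 8.59% of all genes. The median log2 fold change of the 140 genes was -0.04, -0.02 and -0.07 in these comparisons, against -0.0016, -0.0023 and 0.0053 over all genes.

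The 8 genes called against WT were spread over the lists, and their number depended on single mice. It was 1 with RIN as a term (Wnt4) and 1 with mouse 19622 (Lgr4). It was 0 without 19053, 1 without 18944, 19721, 16974 or 19394, 2 without 18943, 3 without 19718 or 19554, 4 without 19720 and 5 without 19723, and 6 to 11 without any 1 of the other 7 mice. Among the 19 tested ligands and secretion genes it was Wnt4, which fell from 16.7 ± 2.23 CPM (n = 5) to 11.5 ± 0.805 (n = 6), a log2 fold change of -0.53 ± 0.11 with an adjusted p of 0.0132. The 13.1 ± 2.12 of APP/PS1 mice lay between. Among the 24 receptors and transducers it was Lgr4, an R-spondin receptor, at 37.98 ± 2.97 CPM in WT mice and 30.9 ± 1.99 in APP/PS1/FTnKO mice (-0.29 ± 0.070). Among the 18 inhibitors it was Frzb, a secreted Wnt binding protein (-0.45 ± 0.12), and in the destruction complex casein kinase Csnk1a1 (-0.18 ± 0.048) was 1 of 2 genes called of 15. Of the 16 TCF factors and co-regulators the chromatin remodeller Smarca4 was lower (-0.19 ± 0.052). Of the 18 target genes tested, a list that holds Axin2, Ccnd1 and Lef1, only Cd44, a hyaluronan receptor, was called, and it was higher (0.91 ± 0.24) with 36 to 175 counts per mouse. Its level was 2.83 ± 0.997 CPM in WT mice, and the mice of APP/PS1 (5.70 ± 2.16) and APP/PS1/FTnKO (5.60 ± 1.54) were alike in mean. Of the 17 cadherin and catenin genes 1 was called, and of the 23 other cyclin, kinase and inhibitor genes of G1 none was called by edgeR or DESeq2, with 4 at an unadjusted p below 0.05.

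A further 15 genes named by the list are given whatever their change, and none of them passed the test in any genotype comparison (edgeR). Against APP/PS1, the log2 fold change in APP/PS1/FTnKO mice was 0.07 ± 0.066 for Ctnna1 (α-catenin), 0.02 ± 0.076 for Cdh2 (N-cadherin), -0.07 ± 0.056 for Axin1, 0.0087 ± 0.049 for Apc2 and -0.0068 ± 0.043 for Gsk3a. It was -0.02 ± 0.055 for the co-receptor Lrp6, -0.05 ± 0.11 for the receptor Fzd1 and 0.08 ± 0.21 for the transcription factor Tcf7l2. The intervals of these adhesion, complex and receptor genes all held 0. Wnt7a and Wnt7b, a pair of ligands, differed by -0.04 ± 0.11 and -0.25 ± 0.11. The secreted inhibitors Dkk3 and Sfrp1 differed by -0.06 ± 0.11 and -0.05 ± 0.16. The CDK inhibitors Cdkn1a (p21) and Cdkn1b (p27) differed by -0.25 ± 0.20 and 0.0027 ± 0.059, and the proliferation marker Mki67 by 0.11 ± 0.23. The nearest to the threshold was Wnt7b in APP/PS1/FTnKO against WT (-0.40 ± 0.11, adjusted p = 0.0526).

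**Figure D3:**
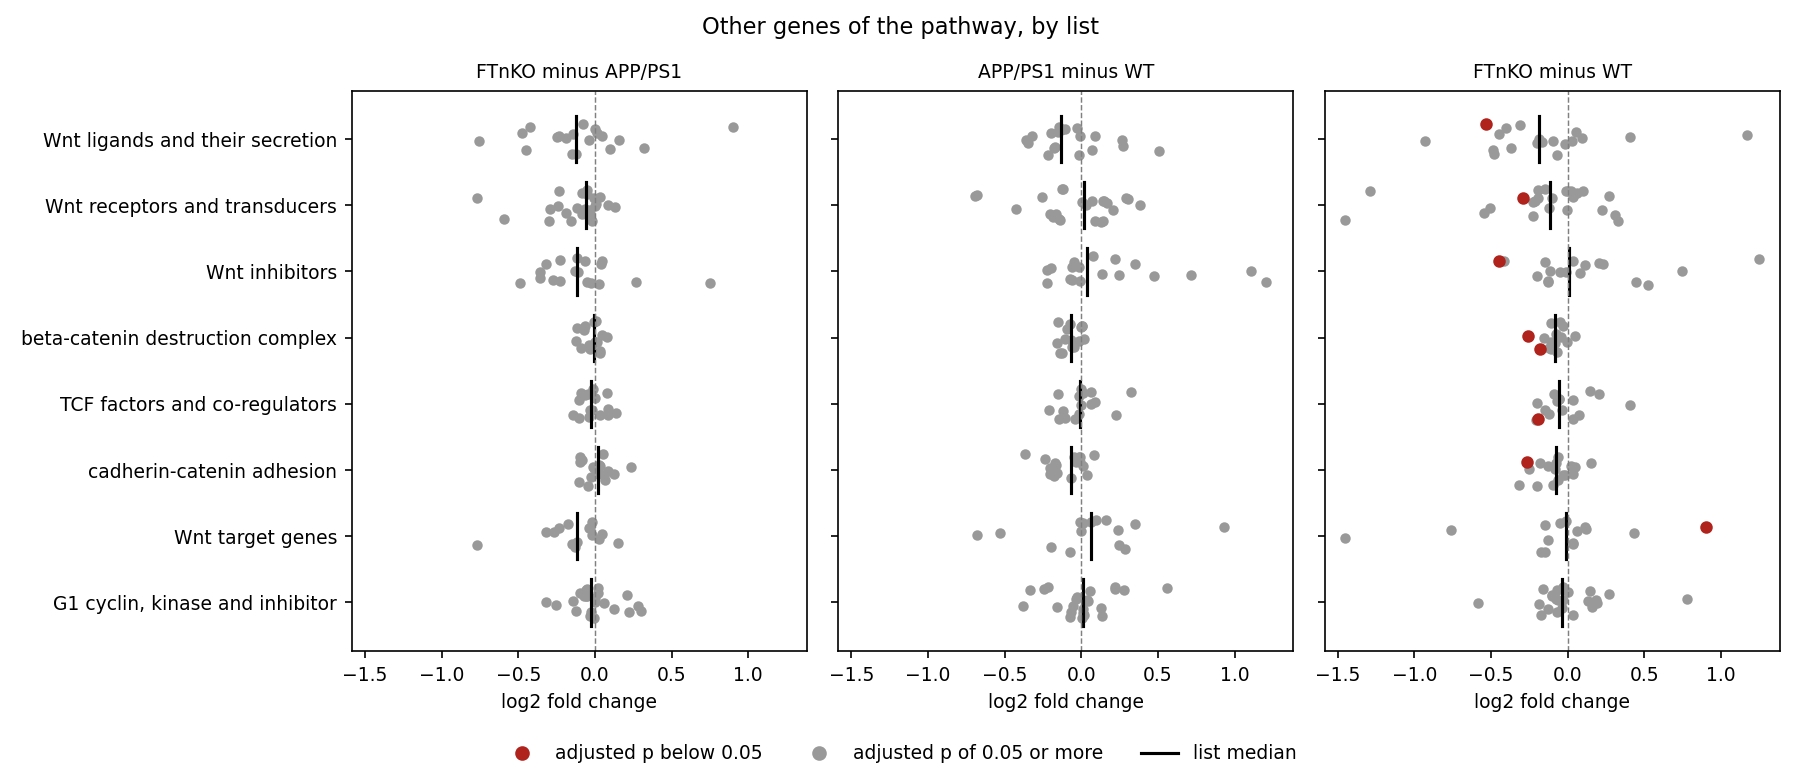
Log2 fold change (x axis) of the tested genes of 8 pathway lists (y axis), without the 10 genes described, in the 3 genotype comparisons (FTnKO stands for APP/PS1/FTnKO). Points are genes, red where the adjusted p was below 0.05, and black bars are list medians. The 8 red points all lie in the comparison with WT, and 7 of them are left of 0.

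Across the 17 mice, the gene most like each of the 10 in log2 CPM was found by Pearson's r, as a description of mice that share genotype and depth. For Ccnd2 it was Bop1, of ribosome assembly (r = 0.899, Spearman's rho = 0.887), for Ccnd1 Cox4i1, a cytochrome c oxidase subunit (0.899 and 0.882), and for Ctnnb1 Cdc42se1 (0.861 and 0.848). Cdk4 was closest to the ribosomal protein gene Rps16 (0.926 and 0.870), Cdk6 to Trim21 (0.927 and 0.926), Apc to Abi3bp (0.925 and 0.846) and Axin2 to Itga8 (0.858 and 0.870). Lef1 was closest to C330013E15Rik (0.806 and 0.824). For Gsk3b and Pja2 r was 0.954 and rho 0.718, and for Ccnd3 and Kansl1l 0.816 and 0.517, a wider gap between the measures. None of the closest genes was another of the 10, which says little, as each was picked from all 17414 genes tested. The r values are likewise the highest among that many genes.

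**Figure D4:**
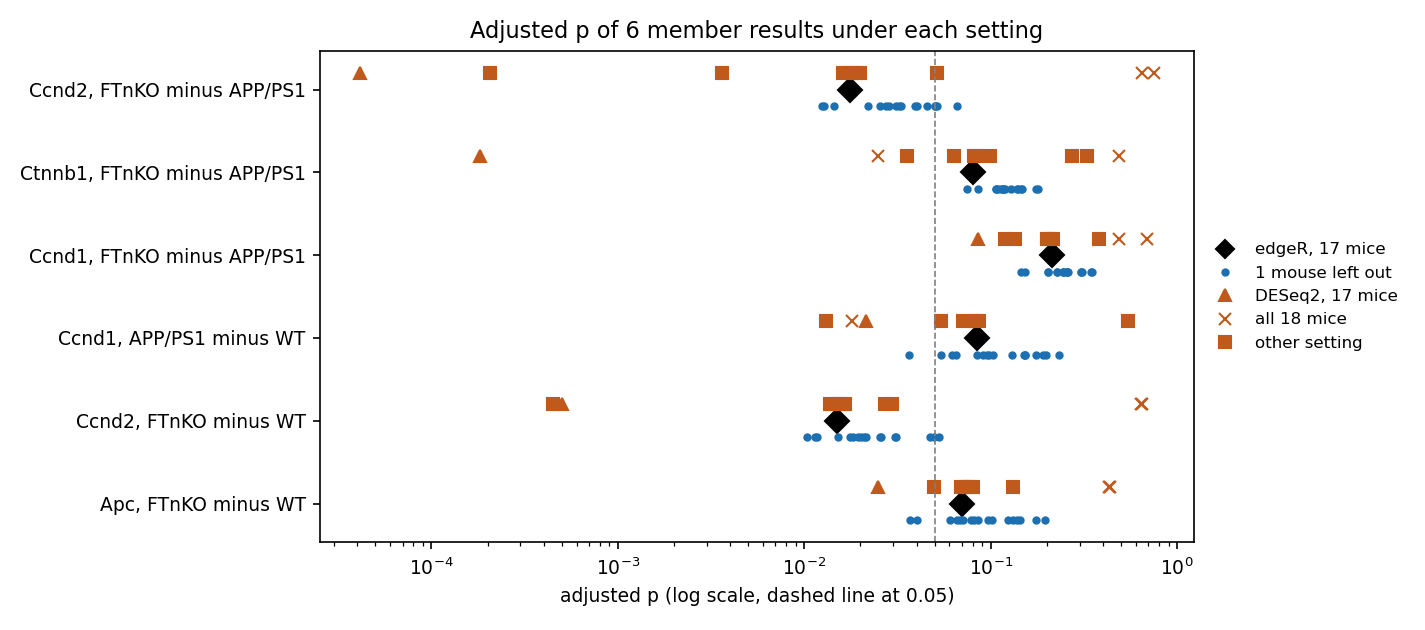
Adjusted p (x axis, log scale, dashed line at 0.05) of 6 results of the 10 genes (y axis) under each setting, with diamonds for edgeR on 17 mice, dots for 1 mouse left out, triangles for DESeq2 on 17 mice, crosses for all 18 mice and squares for other settings. The crosses of Ccnd2 lie at 0.642 to 0.750, right of the line, and its DESeq2 triangles at 4.13e-05 and 0.000502.

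For 8 of the 10 genes, exons shared bases with a gene on the opposite strand (for Ccnd2 the antisense transcripts Gm43126 and 9330179D12Rik). The overlaps were 209 to 1208 bases when summed over all exons of the partner's transcripts, so a base can count more than once. The libraries mark strand, but nothing read here says whether the counting used it, so reads of these partners may be among the counts.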

How the data were processed

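The authors made stranded mRNA libraries from frontal cortex. Reads were trimmed with Trimmomatic 0.33, aligned to GRCm38 with HISAT2 2.1.0 and counted per gene with featureCounts, per the labels and the study's methods. The deposited values are raw counts in 1 table of 18 mice, and for the counting options and annotation nothing is given in the sources read. The 10 genes and all lists were chosen with earlier results of these data known.

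Counts were tested with edgeR 4.0.16 in R 4.3.3: TMM scaling, filterByExpr by genotype with a minimum count of 10, the 3 genotypes in 1 fit with sex as a term, quasi-likelihood F tests, Benjamini-Hochberg adjustment over 17414 genes and a threshold of 0.05. WT mouse 19622 was kept out, as the study excluded a WT outlier, and the fit was repeated with it (17285 genes). Standard errors are the absolute log2 fold change divided by the square root of F. Alternatives were DESeq2 1.42.0, RLE scaling, no filter and a minimum of 50, no sex term, RIN as a covariate, a fit of the compared pair of genotypes alone, and the omission of each mouse. The named genes are the 10, up to 6 pathway genes called per comparison by smallest p, a fixed list of 15 pathway genes, the most alike gene of each of the 10, and Fntb, App and Prnp as label checks. Labels name separate mice. On counts simulated for APP/PS1/FTnKO against APP/PS1, false calls were near the threshold in edgeR and well above it in DESeq2. These counts were drawn with edgeR's own dispersion estimates, so they do not rank the tools on the real counts. Counting error weighs most on weakly expressed genes such as Cdk6, Lef1, Cd44, Tcf7l2 and Mki67.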

Additional observations from a re-analysis of the deposited data

Results flagged for a closer look

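Of 30 groups of mice tested (10 genes in 3 genotypes), 4 had 1 mouse far from the others, where chance flags about 1 in 20 groups. Ctnnb1 was at 391 CPM in APP/PS1/FTnKO mouse 19394, against 417 to 433 in the other 5. Ccnd2 was at 41.4 CPM in APP/PS1/FTnKO mouse 16974, against 57.8 to 66.8 in the other 5, and Ccnd3 was at 21.4 CPM in mouse 18973, against 23.5 to 24.6 in the other 5. Ccnd1 was at 24.4 CPM in WT mouse 19721, against 28.5 to 29.5 in the other 4 WT mice compared. All 4 were the lowest of their group.

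In WT mouse 19622, which was kept out of the main fit, Ctnnb1 was at 498 CPM, against 436 to 459 in the other WT mice on the scaling of all 18 mice, and Ccnd3 was at 39.2 CPM, against 24.5 to 25.8. Among all genes, 55.4% lay above or below the other 17 mice in this library.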

How the results depend on the processing

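Of 1060 values of the 10 genes under an alternative, 1038 kept their side of the threshold, 10 lost a call, 12 gained one and none that was called changed direction. No paired analysis was possible because the labels give no replicate numbers shared between genotypes. In APP/PS1/FTnKO against APP/PS1, 1 of the 10 genes was called, 0 with mouse 19622 or with only the 2 genotypes, and 2 (Ctnnb1 and Ccnd2) by DESeq2 or with RIN; leaving out 1 mouse gave 0 to 1. In APP/PS1 against WT the number was 0, and 1 (Ccnd1) by DESeq2, by DESeq2 on 18 mice (added after the data were seen) or without the filter; leaving out 1 mouse gave 0 to 1. In APP/PS1/FTnKO against WT it was 1, 0 with 19622, and 2 (Ccnd2 and Apc) by DESeq2 or without the filter; leaving out 1 mouse gave 0 to 2. DESeq2 on 18 mice called 1 in each comparison with APP/PS1/FTnKO, Ctnnb1 and not Ccnd2.

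For the other pathway genes, 0 against APP/PS1 became 1 by DESeq2, and in APP/PS1 against WT 0 became 3 by DESeq2, 2 without the filter, 1 with only the 2 genotypes and 4 by DESeq2 on 18 mice. In APP/PS1/FTnKO against WT 8 became 1 with 19622, 14 by DESeq2, 1 with RIN and 5 with the filter set from the design matrix, which was run first and then replaced by the filter by genotype. Leaving out 1 mouse gave 0 to 0, 0 to 2 and 0 to 11. The counts for sex and for its interaction with genotype were 0 under all alternatives run.

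Over all genes, edgeR called 57, 261 and 674 in the 3 comparisons, and DESeq2 250, 468 and 1321. With 19622 the common dispersion rose from 0.0171 to 0.0400 and edgeR called 2, 207 and 261. The shares of all genes called under the other alternatives are not given here. Calls gained or lost there can therefore not be set against them.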
